A study of Mus musculus with 8 samples.

Results

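The 9 genes described here encode transcription factors of the retinal ganglion cell (RGC) lineage, the projection neurons of the retina, and were taken by symbol from 21828 genes measured in mouse retina. They were Atoh7, Pou4f1, Pou4f2, Pou4f3, Isl2, Eomes, Ebf1, Ebf3, and Tbr1, and all 9 had an estimate in all 8 libraries. The mice were of the slc:ICR strain, and the label names no other allele or treatment. Whole retinas were taken at embryonic day 15 (E15) and E18, and at postnatal day 2 (P2), P5, and P8 retinas were pooled, dissociated with trypsin, stained with propidium iodide and an antibody against the surface protein Cd73, and sorted. Cd73 marks rod photoreceptors and their precursors. The sort gave a Cd73-positive fraction enriched in rods (Cd73PC) and a Cd73-negative fraction meant to hold the remaining retinal cells (Cd73NC). The paper states that the cells were sorted quickly, at a cost in purity. Each condition was 1 library, so the values carry no replicate error, and differences between 2 libraries are given as folds with the bounds that Cufflinks put on each estimate. The sorted fractions form a pair at each of the 3 stages, and the mean difference over these pairs was the only one tested. The bounds say how precisely a level was estimated from the reads of that library, and nothing of how animals vary. Levels are in FPKM, fragments per kilobase of transcript scaled to the mapped fragments of the library, so that levels of different genes can be compared per length.

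RGCs are the first neurons born in the retina, and their axons form the optic nerve. Progenitors that switch on the basic helix-loop-helix factor Atoh7 become competent to make RGCs, and newborn RGCs then switch on Isl1 and Pou4f2, which carry the program of axon growth and survival. Later factors divide RGCs into types: Pou4f1 and Pou4f3 act in overlapping sets of them, Isl2 in cells projecting to the opposite side of the brain, Eomes and Tbr1 in separate subsets, and Ebf1 and Ebf3 in several neuron classes. The study placed RGCs among the cell types of the Cd73-negative fraction, and the question addressed here is how these factors were distributed over the stages and the 2 fractions.

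For 4 of the factors the 250 bases upstream of the annotated start hold one of the short motifs searched, and these are shown because the motifs belong to the 2 protein classes described below, E-box binding factors such as Atoh7 and POU or LIM homeodomain factors. The sequences are from RefSeq on build GRCm38.p6, read 5′ to 3′ on the strand of the gene, in lower case with the motif in capitals:
Atoh7 (chr10:63099535-63099784, plus strand): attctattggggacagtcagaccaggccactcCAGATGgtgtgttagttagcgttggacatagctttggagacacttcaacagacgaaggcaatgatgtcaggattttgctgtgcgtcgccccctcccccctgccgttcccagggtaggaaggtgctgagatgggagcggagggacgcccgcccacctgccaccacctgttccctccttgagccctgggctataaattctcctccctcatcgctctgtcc
Pou4f1 (chr14:104468000-104468249, minus strand): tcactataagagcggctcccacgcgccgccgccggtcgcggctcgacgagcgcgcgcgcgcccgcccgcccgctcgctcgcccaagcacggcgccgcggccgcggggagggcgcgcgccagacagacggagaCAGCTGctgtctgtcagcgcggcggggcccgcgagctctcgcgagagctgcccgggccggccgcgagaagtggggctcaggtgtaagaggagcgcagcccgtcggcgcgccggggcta
Eomes (chr9:118477939-118478188, plus strand): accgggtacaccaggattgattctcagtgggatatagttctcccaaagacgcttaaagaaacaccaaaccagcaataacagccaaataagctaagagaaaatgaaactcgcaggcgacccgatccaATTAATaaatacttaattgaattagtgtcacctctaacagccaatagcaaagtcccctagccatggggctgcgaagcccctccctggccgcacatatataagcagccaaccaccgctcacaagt
Tbr1 (chr2:61804203-61804452, plus strand): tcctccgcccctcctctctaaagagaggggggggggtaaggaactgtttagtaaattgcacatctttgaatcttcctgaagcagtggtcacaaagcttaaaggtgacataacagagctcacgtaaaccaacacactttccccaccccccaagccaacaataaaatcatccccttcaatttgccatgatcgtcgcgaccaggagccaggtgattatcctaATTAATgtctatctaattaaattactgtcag
In the Atoh7 window the capitals mark CATCTG, read on the opposite strand, which starts at -218 from the gene's start. In Pou4f1 they mark the E-box CAGCTG at -118, and in Eomes and Tbr1, both T-box genes, they mark ATTAAT, an AT-rich homeodomain type motif, at -124 and -31. Of 32851 upstream windows of this length, 13.0% hold CAGCTG, 14.4% hold CATCTG on either strand, and 4.39% hold ATTAAT, so none of these matches is rare, and a match is only a description of the letters. The windows of Eomes and Tbr1 had GC contents of 46.4% and 45.2%, below the median window (52.4%), whereas the Pou4f1 window reached 78%. The table held 9 windows for 8 of the 9 factors, and the windows of Pou4f2, Isl2, Ebf1 (both starts), and Ebf3 held none of the 3 motifs.

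On build mm9, which the files use, each factor's row overlapped the gene of the same symbol in the annotation. Atoh7 lies at chr10:62562904-62563353, where the annotated transcript is 1 exon of 450 bases. Pou4f1 lies at chr14:104861541-104867216, Pou4f2 at chr8:80956908-80960551, and Pou4f3 at chr18:42554251-42555747. Isl2 and Eomes lie on the same chromosome at chr9:55388956-55393985 and chr9:118387307-118395250. Ebf1 is the longest at chr11:44431636-44818674, Ebf3 lies at chr7:144385354-144506128, and Tbr1 at chr2:61642510-61652170. The span of Ebf1 contains the antisense transcript Gm12158 (44473024 to 44476178, minus strand). Whether it overlaps an exon of Ebf1 was not checked. The preparation is not stated to keep strand, so reads from any bases that exons of the pair share could not be told apart.

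All 9 factors except Tbr1 were expressed well above FPKM 1 in both embryonic retinas, and most were close to 0 in both sorted fractions by P8. At E15, 8 factors reached FPKM 1, and at E18 all 9 did. At P2 this number had dropped to 5 in Cd73NC and 4 in Cd73PC, at P5 to 4 and 2, and at P8 to 2 and 1. The median over the 9 factors was FPKM 24.9 at E15 and 14.3 at E18, then 1.09 and 0.553 in Cd73NC and Cd73PC at P2, 0.483 and 0.412 in the P5 pair, and 0.354 and 0.189 in the P8 pair. The share of all genes at FPKM 1 or more stayed between 51.1% and 56.9% over the 8 libraries. In bulk samples such as these, fewer cells of a type and less RNA per cell cannot be told apart. The step from E18 to P2 is also the step from whole to sorted retina, and the 2 cannot be told apart either.

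**Figure D1:**
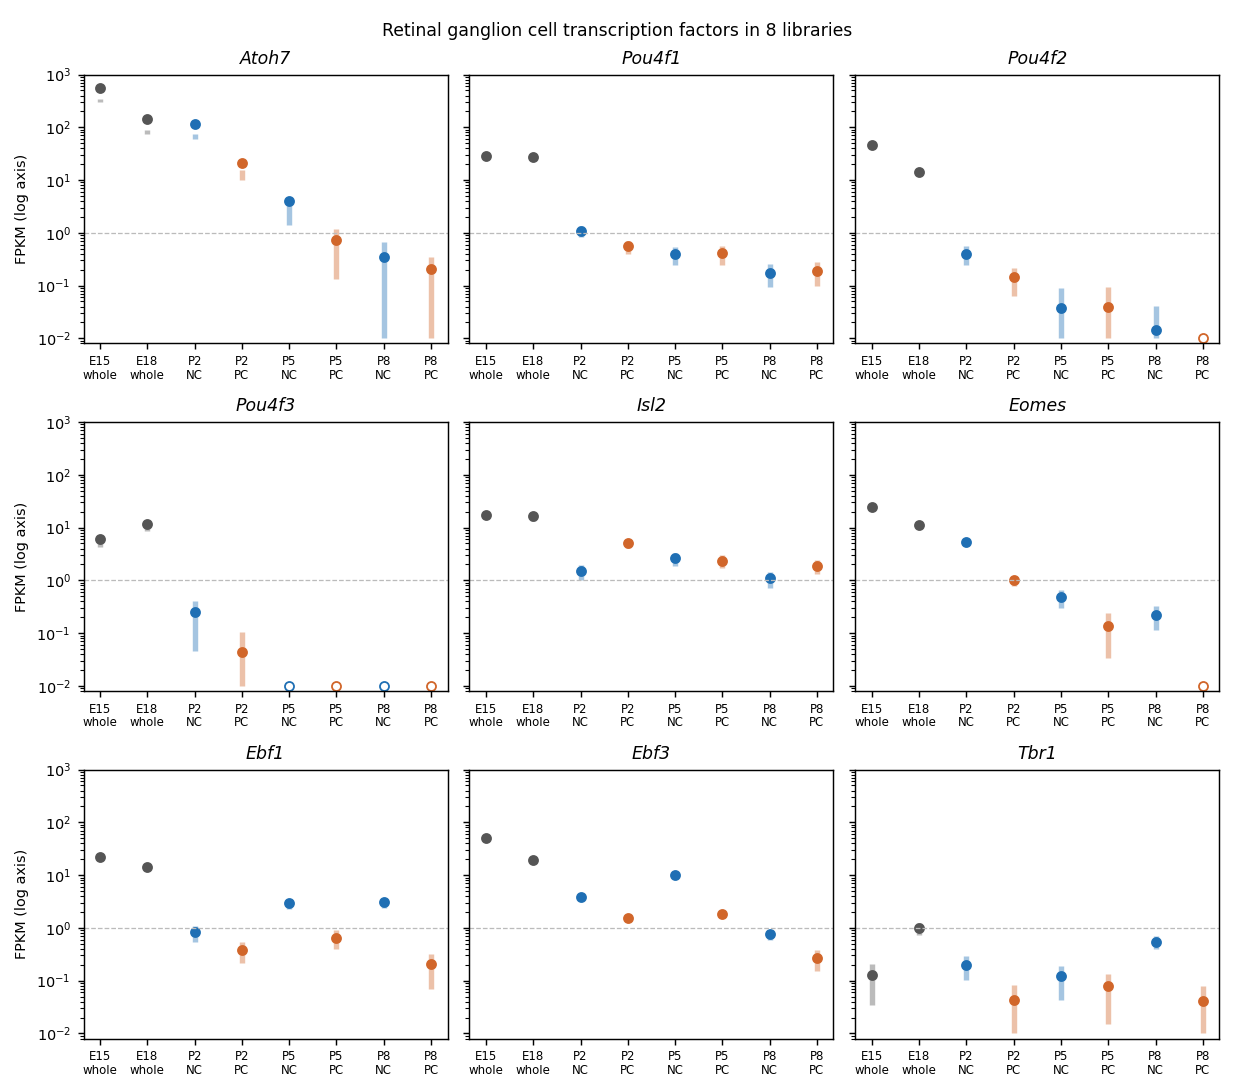
FPKM (log axis) of the 9 transcription factors in the 8 libraries, whole retina in grey, Cd73NC in blue and Cd73PC in orange, with the Cufflinks bounds as vertical bars, and the dashed line at FPKM 1. Open points drawn at 0.01, and bars cut there, stand for values listed at 0 or bounds reaching lower. The 3 Pou4f genes lie at or below FPKM 1.09 in every sorted library, Atoh7 is at 116 in P2 Cd73NC, and Ebf1 is near 3 in Cd73NC at P5 and P8.

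Because the labelled Cd73NC fraction was said to hold RGCs, the defining RGC markers were checked first. The summed FPKM of 6 markers (Rbpms, Sncg, Nefl, Nefm, Slc17a6, and Thy1) was 883 at E15 and 552 at E18. It was 18.7 in P2 Cd73NC and 6.65 in P2 Cd73PC, and lay between 2.45 and 3.60 in the 4 later libraries. Sncg, a synuclein enriched in RGCs, went from 295 at E18 to 3.65 in P2 Cd73NC and was listed at 0 in P5 Cd73NC. The sort itself was visible in Nt5e, the gene of Cd73, which stood at 97.3 in P2 Cd73PC against 2.43 in P2 Cd73NC. The later pairs were 131 against 31.4 (P5) and 124 against 9.38 (P8). The 6 rod markers summed to 50.4 in P2 Cd73NC, 798 in P5 Cd73NC, and 756 in P8 Cd73NC, so the later negative fractions also carried rod transcripts. Of the 6 RGC markers, 4 stayed at FPKM 1 or more in P2 Cd73NC (Nefm at 6.26, Nefl at 5.90, Sncg, and Rbpms at 1.79), 3 in P2 Cd73PC, and 1 in each later library. The summed level of the defining RGC markers was thus far below its embryonic levels in both fractions, from P2 on, and the cause was not tested. Thy1, at 29.2 at E18, was less far from its E15 level, with 0.974 in P8 Cd73NC against 2.28 at E15.

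**Figure D2:**
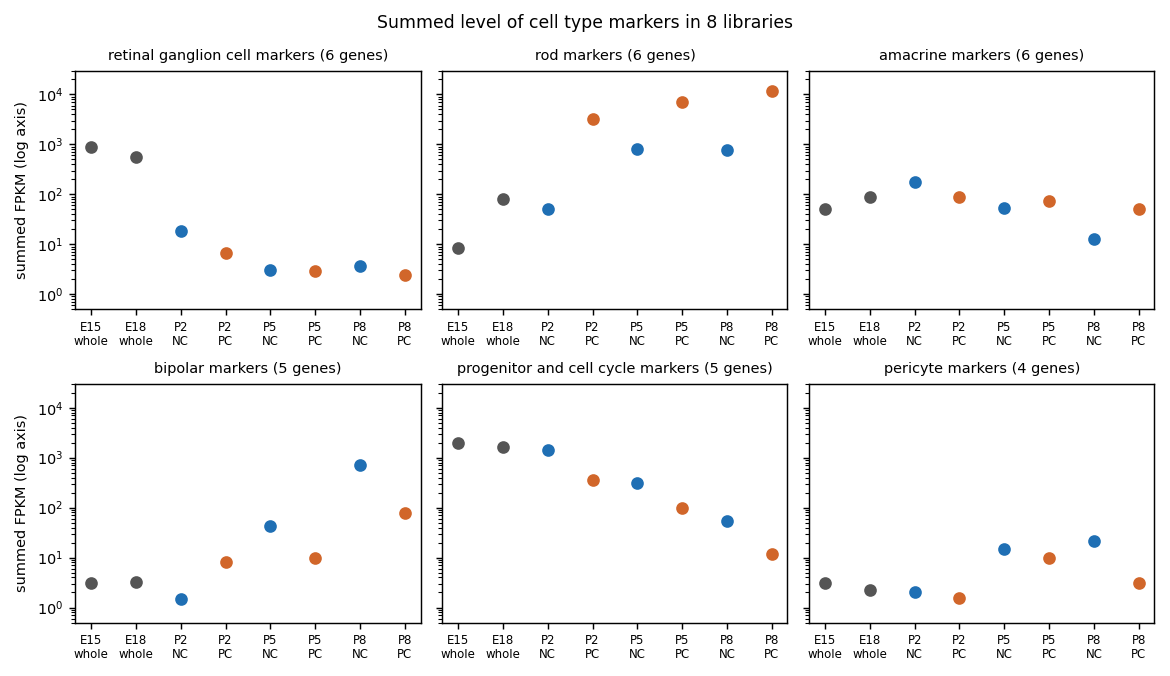
Summed FPKM (log axis) of the markers of 6 cell types in the 8 libraries, whole retina in grey, Cd73NC in blue, Cd73PC in orange, 1 point per library. The RGC sum drops from 552 in E18 whole retina to 18.7 in P2 Cd73NC, while the progenitor and cell cycle sum is 1636 and 1445 in the same libraries and the amacrine sum is 87.6 and 180.

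Atoh7, the competence factor, was the most abundant of the 9 factors at both embryonic stages. Its FPKM was 564 at E15, 143 at E18, 116 and 20.9 in Cd73NC and Cd73PC at P2, 3.96 and 0.719 in these fractions at P5, and 0.354 and 0.211 at P8. The order of the libraries followed age, and within each age Cd73NC stood above Cd73PC. The bounds of E18 and P2 Cd73NC overlapped, as did those of the 3 lowest libraries, and the other neighbours in this order were apart. In the 4 libraries with the highest values the FPKM lay above its own upper bound, with 564 against bounds of 299 to 338 at E15, a ratio to the midpoint of 1.77. This ratio was also 1.73 in the median of rows spanning 400 to 500 bases at E15, and 1.01 in the median of rows over 5000 bases. The absolute level of Atoh7 is therefore uncertain, and its midpoint at E15 was 319, still above the other 8 factors. Its ratio to the midpoint was 1.74 in P2 Cd73NC, 1.37 in P5 Cd73NC, and 1.09 in P5 Cd73PC, so its folds are uncertain too. With midpoints, the log2 ratio of FPKM + 1 was -4.12 in place of -4.56 for P5 over P2 Cd73NC. Between the P5 fractions it was 1.23 in place of 1.53.

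The 3 POU homeodomain genes had the sharpest difference between embryonic and sorted libraries. Pou4f1 stood at 28.05 at E15 and 26.9 at E18, with overlapping bounds, and then at 1.09 and 0.553 in Cd73NC and Cd73PC at P2, 0.401 and 0.412 in the P5 fractions, and 0.171 and 0.189 in the P8 fractions. Pou4f2, the earliest of the family in RGC development, stood at 45.6 and 14.1 in the embryonic retinas, at 0.391 and 0.143 at P2, at 0.0383 and 0.0394 at P5, and at 0.0146 and 0 at P8. Pou4f3 was the only one of the 3 with a higher value at E18 (11.7) than at E15 (6.21), and after 0.249 and 0.0434 at P2 it was listed at 0 in all 4 libraries of P5 and P8. Thus Pou4f2 led at E15, Pou4f1 at E18, and Pou4f3 was lowest at both stages, on this per-length scale. None of the 3 differed between the fractions at P5 or P8 beyond its bounds.

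Isl2, a LIM homeodomain factor, departed from the others in the sorted fractions. Its FPKM was 17.5 at E15 and 16.3 at E18, with overlapping bounds. It was 1.49 in P2 Cd73NC (bounds 1.02 to 1.95) but 5.12 in P2 Cd73PC (bounds 4.03 to 6.00), the only one of the 9 factors with the higher value in Cd73PC at P2. The rod, cone, horizontal, bipolar, astrocyte, and microglia marker sums were also higher in P2 Cd73PC, with microglia at 25.5 against 4.29. The sums of the other marker sets were lower there. The part of any cell type in the Isl2 level was not tested. The later values were 2.62 and 2.37 in Cd73NC and Cd73PC at P5, and 1.09 and 1.87 at P8, and in both pairs the bounds overlapped. It was also the only factor that stayed above FPKM 1 in all 8 libraries.

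The 2 T-box factors had different time courses. Eomes, found in a subset of RGCs that includes the intrinsically photosensitive ones, stood at 24.9 at E15, 11.1 at E18, and 5.32 in P2 Cd73NC against 1.01 in P2 Cd73PC. It was 0.483 and 0.138 at P5, and 0.219 in P8 Cd73NC against a value listed at 0 in P8 Cd73PC. The 5 highest libraries did not overlap each other in their bounds. Tbr1, which marks another RGC subset, was low throughout, with 0.127 at E15, 1.0 at E18, 0.194 and 0.0434 at P2, 0.122 and 0.0786 in Cd73NC and Cd73PC at P5, and 0.547 and 0.0415 in the same fractions at P8. Its 2 highest libraries were E18 (bounds 0.749 to 1.27) and P8 Cd73NC (0.397 to 0.706), each apart from the next.

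The EBF genes kept a measurable level in the postnatal Cd73NC fraction. Ebf1 was at 22.0 and 14.3 in the embryonic retinas, at 0.819 and 0.381 in Cd73NC and Cd73PC at P2, and then higher in Cd73NC, at 2.91 against 0.639 at P5 and 3.05 against 0.204 at P8. Ebf3 was at 49.7 and 19.6 in the embryonic retinas, at 3.84 and 1.51 at P2, at 10.2 and 1.82 at P5, and at 0.750 and 0.267 at P8. Both therefore had a higher value in P5 Cd73NC than in P2 Cd73NC, and at P8 only Ebf1 still did. The summed level of the 4 pericyte markers moved along with Ebf1 in Cd73NC, from 2.09 at P2 to 15.2 and 21.7 at the later stages. In Cd73PC the pericyte sum was 1.55, 9.72, and 3.03. Of these markers, Rgs5 stood at 0.585, 10.8, and 14.7 in Cd73NC, Pdgfrb at 1.13, 2.98, and 3.69, and Kcnj8 was listed at 0 in P2 Cd73NC, with 0.696 and 2.17 in the later ones. The bipolar markers, which summed to 1.496, 43.7, and 705 in the same 3 libraries, also moved in that direction. So did the astrocyte (0.642, 9.74, and 8.97), microglia (4.29, 31.7, and 90.5), and erythroid (106, 1377, and 5170) markers. The rod (50.4, 798, and 756) and cone (57.0, 144, and 115) markers were likewise higher at P5 and P8 than at P2. The part of any of these cell types in the Ebf1 level was not tested.

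Between the 2 embryonic stages, 5 of the 9 factors were lower at E18 by more than 1.5-fold on FPKM + 1, and 2 were higher. The same rule called 2.09% of all genes lower (3.47% of those at FPKM 1 or more in either library) and 4.61% higher (7.59%). The lower factors were Atoh7 (3.95-fold), Pou4f2 (3.23-fold), Ebf3 (2.54-fold), Eomes (2.24-fold), and Ebf1 (1.54-fold). Ebf1 passed narrowly, at 1.501-fold on FPKM + 1, and did not pass with the midpoint of the bounds, which left 4 factors lower. Pou4f3 (1.89-fold) and Tbr1 (7.86-fold, from 0.127 to 1.0) were higher, and Pou4f1 and Isl2 lay within the threshold. The 28 other transcription factors of the RGC program gave 12 lower and 3 higher, and among them Onecut1, a homeobox gene of RGCs and horizontal cells, went from 14.2 to 4.29. The 18 effector genes, which include genes of cytoskeletal, adhesion, and synaptic proteins of RGCs, gave 8 lower and 5 higher. Among these, the surface protein gene Thy1 went from 2.28 to 29.2 and the nicotinic receptor subunit Chrna6 from 0.659 to 8.23, whereas the adhesion gene Cntn2 went from 50.4 to 7.44. The members of the program thus did not share 1 direction between E15 and E18.

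From E18 whole retina to P2 Cd73NC, 8 of the 9 factors were lower by more than 1.5-fold on FPKM + 1, against 8.20% of all genes and 13.3% of those at FPKM 1 or more. The FPKM of Pou4f3 was 47.0-fold lower, that of Pou4f2 36.2-fold, Pou4f1 24.7-fold, Ebf1 17.5-fold, and Isl2 10.9-fold. Tbr1 (5.16-fold), Ebf3 (5.10-fold), and Eomes (2.09-fold) differed less. The largest of these folds rest on values near 0, with Pou4f3 at 0.249 in P2 Cd73NC (bounds 0.0456 to 0.410). On FPKM + 1 the order of the Pou4f genes was reversed, with Pou4f1 13.3-fold, Pou4f2 10.9-fold, and Pou4f3 10.2-fold lower. Atoh7 was the exception, at 81.3% of its E18 value with overlapping bounds. The median log2 ratio of FPKM + 1 was -2.80 over the 9 factors and -0.03 over the genes at FPKM 1 or more. The effector genes gave 17 of 18 lower, with a median of -2.73, and none higher. The other transcription factors gave 14 of 28 lower and 1 higher, with a median of -0.59. Few genes of any kind were higher, 3.2% of all genes and 5.47% of those at FPKM 1 or more.

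Since a gene could also have been sorted into the positive fraction, the higher of the 2 P2 values was set against E18. It was 2.13% for Pou4f3, 2.76% for Pou4f2, 4.06% for Pou4f1, and 5.73% for Ebf1. These percentages were close to those of the effectors Sncg (1.24%), Thy1 (1.98%), Rbpms (4.45%), and Nefl (4.73%), while the Irx homeobox genes were split. Irx4 (1.88%), Irx1 (2.13%), and Irx2 (5.01%) were as low, whereas Irx6 (57.1%), Irx3 (74.2%), and Irx5 (143%) were not. Tbx20, a T-box gene, was lower still, at 0.359% (in Cd73PC). Sox4 (142%, in Cd73NC), Myt1 (187%, in Cd73PC), and Neurod1 (610%, in Cd73PC) were above their E18 levels. The percentages were 19.4% for Tbr1, 19.6% for Ebf3, 31.4% for Isl2 (in Cd73PC), 47.8% for Eomes, and 81.3% for Atoh7. The 9 factors thus covered most of the range between Sncg and the axon guidance receptor gene Robo2 (96.0%). Pax6, which progenitors, RGCs, and amacrine cells all express, stood at 190 in P2 Cd73NC and 176 at E18. The progenitor and cell cycle markers had summed levels of 1636 at E18 and 1445 in P2 Cd73NC, and 360 in P2 Cd73PC.

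**Figure D3:**
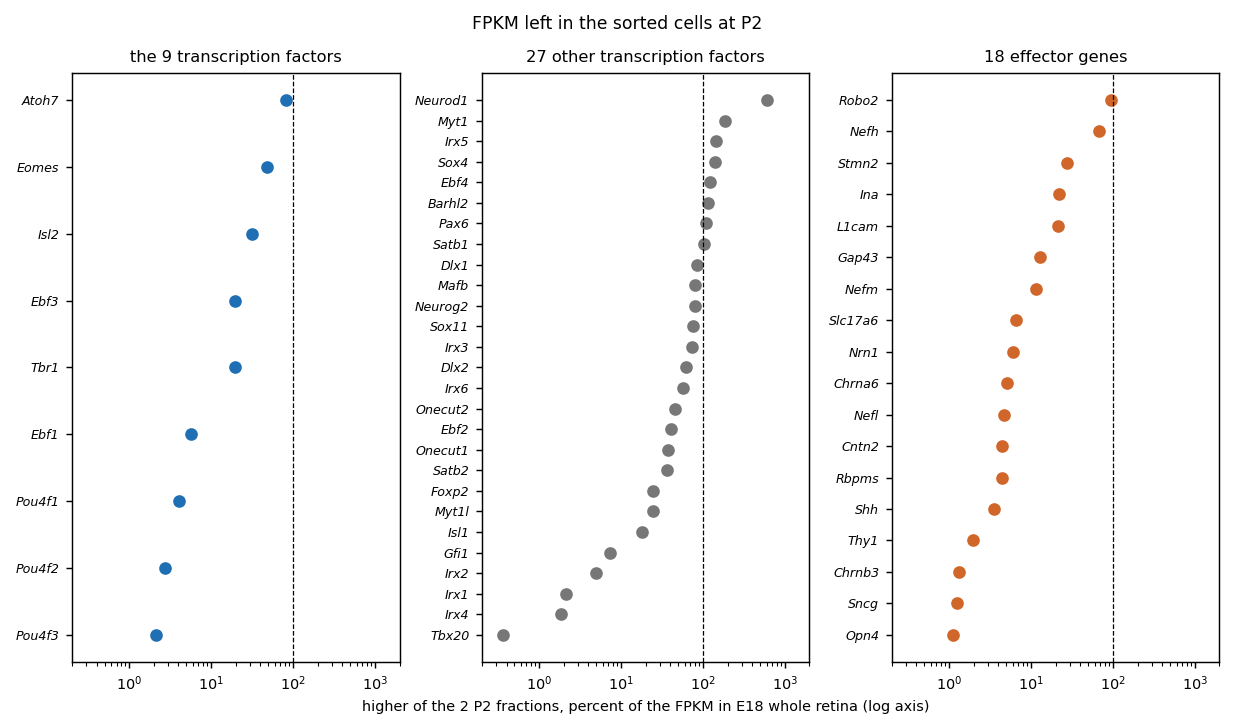
The higher FPKM of the 2 P2 fractions as a percent of the E18 whole retina (log axis), 1 point per gene, for the 9 transcription factors, 27 of the 28 other transcription factors of the RGC program, and 18 effector genes, with the dashed line at 100%. The Pou4f genes lie between 2.13% and 4.06%, and Atoh7 lies at 81.3%.

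Between the fractions at P2, Cd73NC was higher than Cd73PC by the same rule for 3 factors, against 14.4% of all genes and 25.0% of those at FPKM 1 or more. They were Atoh7 (5.58-fold), Eomes (5.28-fold), and Ebf3 (2.53-fold). Of the 5 factors at FPKM 1 or more in either fraction, these were 3. Isl2 was the only factor lower in Cd73NC, with the Cd73PC value 3.44-fold higher, in a direction taken by 8.56% of all genes (14.5%). The other 5 factors were higher in Cd73NC by their FPKM, and Pou4f3 was the only one of them whose bounds overlapped, but at levels too low to pass the rule. Genes at FPKM 1 or more were themselves shifted toward Cd73NC, with median log2 ratios of 0.14, 0.18, and 0.23 from P2 to P8, so small ratios must be read against this offset.

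At P5, Cd73NC was higher for Ebf3 (5.58-fold), Atoh7 (5.50-fold), and Ebf1 (4.55-fold), 3 of the 9 factors against 15.6% of all genes (27.0% at FPKM 1 or more). Of the 4 factors at FPKM 1 or more, these were again 3. No factor was lower, in a direction taken by 7.02% of all genes (12.3%). At P8 only Ebf1 passed, 14.9-fold higher in Cd73NC, or 1 of 9 against 18.6% (31.3%). Only 2 factors, Ebf1 and Isl2, reached FPKM 1 at P8, so the rule on FPKM + 1 could hardly be met. With a pseudocount of 0.1 in place of 1, 4 factors were higher and 1 was lower. The share of all genes at that pseudocount was not computed. Ebf3 (0.750 against 0.267) and Eomes (0.219 against 0) had separate bounds with the higher value in Cd73NC. Tbr1 stood at 0.547 in P8 Cd73NC and 0.0415 in P8 Cd73PC with separate bounds, and its ratio of FPKM + 1, 1.49, lay just inside the threshold. Of the 28 other transcription factors, 12, 14, and 13 were higher in Cd73NC at the 3 stages in turn, and 3, 0, and 1 were lower. The effector genes gave 7, 6, and 8 higher and 1 lower at each stage. Of all genes, 8.56%, 7.02%, and 7.54% were lower in Cd73NC at P2, P5, and P8.

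Over the 3 stages together, the mean log2 difference of FPKM + 1, Cd73NC minus Cd73PC, was fitted with limma across 21812 genes with the stage as a block, which treats the change of this difference between stages as error. No gene passed an adjusted p of 0.05 (0% called), with 5571 genes at an unadjusted p under 0.05, and the fit had 2 residual degrees of freedom. By limma, Ebf1 differed by 1.13 ± 0.34 (SE, adjusted p = 0.196), Ebf3 by 1.13 ± 0.40 (0.24), and Atoh7 by 1.37 ± 0.57 (0.29). Together with Eomes and Tbr1, these were the 5 factors with the higher FPKM in Cd73NC at all 3 stages. The bounds of the fractions overlapped for Atoh7 at P8 and for Tbr1 at P5. Isl2 differed by -0.55 ± 0.37 in the same limma fit (adjusted p = 0.483) and had the higher FPKM in Cd73NC only at P5, where the bounds overlapped. Ebf1 was the only factor at an unadjusted p under 0.05 in this limma fit (0.04996), a level that 5571 of the 21812 genes reached. All 6 rod markers were lower in Cd73NC past 1.5-fold at each of the 3 stages, and the fit called none of them either. With 2 residual degrees of freedom, the fit therefore cannot decide whether any of the 9 factors differed on average over the stages.

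**Figure D4:**
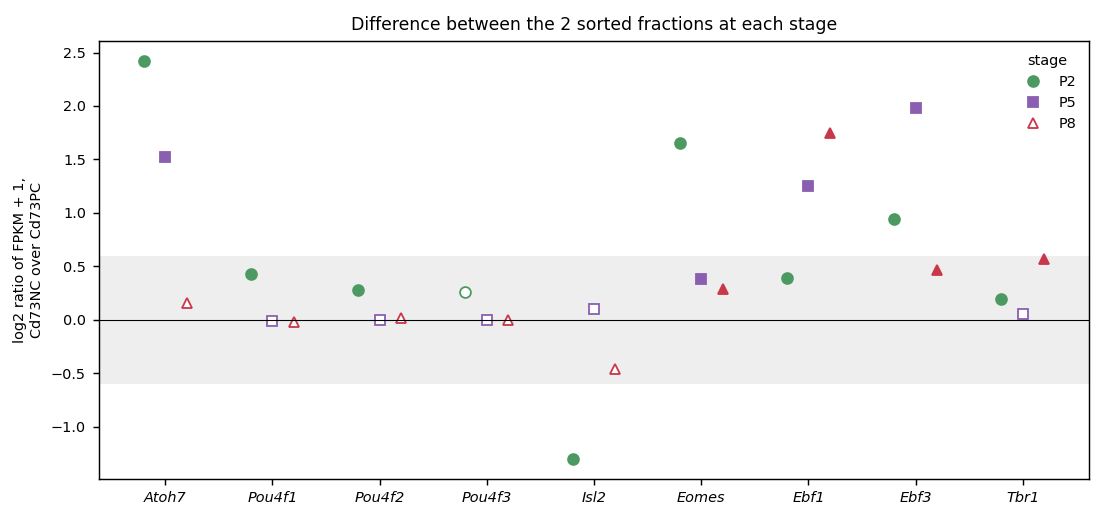
Log2 ratio of FPKM + 1 in Cd73NC over Cd73PC for the 9 factors at P2 (circles), P5 (squares), and P8 (triangles), with the grey band showing 1.5-fold. Filled symbols have separate Cufflinks bounds. Atoh7 goes from 2.42 at P2 to 0.16 at P8, Ebf1 from 0.40 to 1.75, and Isl2 is the only factor below the band, at P2.

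Within Cd73NC the comparisons of successive stages share libraries and are not independent. From P2 to P5, Ebf1 (3.55-fold) and Ebf3 (2.65-fold) were higher, against 7.93% of all genes (13.1% at FPKM 1 or more). Atoh7 (29.4-fold) and Eomes (11.0-fold) were lower, against 9.51% (16.3%). Between these stages the progenitor and cell cycle markers went from 1445 to 317, with all 5 lower, and the amacrine markers from 180 to 54.1, with 5 of 6 lower. From P5 to P8, Ebf3 (13.6-fold), Atoh7 (11.2-fold), and Isl2 (2.40-fold) were lower, against 7.78% (13.2%). No factor passed the rule as higher, in a direction taken by 8.47% of all genes (14.1%). Tbr1 went from 0.122 to 0.547 with separate bounds, at levels too low to pass. The LIM homeodomain gene Isl1, which acts with Pou4f2 in RGCs and is also expressed by bipolar cells, was not among the 9 and took another course, with 26.4 at E18, 4.79 in P2 Cd73NC, 26.8 at P5, and 294 at P8.

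The profiles over the 8 libraries were compared by Pearson's r of log2(FPKM + 1), as a description, since the libraries share stage and fraction. The closest pairs among the 9 factors were Pou4f1 and Pou4f3 (r = 0.986) and Pou4f1 and Pou4f2 (0.980), and Atoh7 was closest to Eomes (0.964). Tbr1 was least like the others, from 0.233 with Atoh7 to 0.606 with Pou4f3. Among the 10858 other genes that reached FPKM 5 in any library (10859 for Tbr1), the profile most like Pou4f1 was that of Slc17a6 (0.998), which encodes the vesicular glutamate transporter of RGCs, followed by Mstn (0.997) and Stk32b (0.995). Pou4f2 was most like the transcription factor gene Irx2 (0.997), and the ion channel gene P2rx3 (0.995) was also among its 3 nearest. Pou4f3 was most like Tmem163, Snhg11, and Stk32c, the first at 0.995.

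The other factors had neighbours of different kinds. Atoh7 was most like Idh1 (0.995), a metabolic enzyme whose FPKM went only from 125 at E15 to 36.3 in P8 Cd73PC, and Acadl was next. Eomes was most like Crabp2 (0.995), a retinoic acid binding protein, then Ano1 and Dio3. Isl2 was most like Srek1 (0.984), which stayed between 10.7 and 18.8 in all 8 libraries, then Luc7l and Khnyn. Ebf1 was most like Kctd16 (0.991), Gpr153, and Tbc1d9b, and Ebf3 was most like Ret (0.980), which encodes a receptor tyrosine kinase, then Mast4 and Gtf3c5. Tbr1 was most like Rell2 (0.956), Vsnl1, and Ppp1r3c. With 8 points that fall into embryonic and postnatal libraries, such values are reached by genes with very different folds, as Idh1 and Srek1 show.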

How the data were processed

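Poly(A) RNA was sequenced as 36-base single-end reads. The authors aligned the reads to mm9 with TopHat2 2.0.8b, allowing up to 50 hits per read, and computed FPKM with Cufflinks 2.1.1, and the deposited tables hold the FPKM of 23021 rows with lower and upper bounds. Read counts and absolute depth are unknown; steps among values below FPKM 0.3 gave depths of 0.965 to 1.62 relative to E18.

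Small RNA rows (796) were left out, rows sharing a symbol (234 symbols) were summed, and failed estimates (4 to 10 rows per library) were missing values. A difference was counted past 1.5-fold on FPKM + 1, over all genes and over those at FPKM 1 or more in either library. With 1 library per condition, the only test was of the fractions over the 3 stages, by limma 3.58.1 (R 4.3.3) on log2(FPKM + 1) with the stage as a block and Benjamini-Hochberg adjustment, added after seeing the data. The text names the 9 factors, 2 hand-written RGC lists with genes past 2-fold, markers, and for each factor the 3 genes of highest Pearson r among those at FPKM 5 or more. Other genes that are placed beside a factor for comparison come from these lists. The members and lists were chosen with earlier results of these data known. A few genes these rules name are not reported here. Upstream windows are RefSeq's. Alternatives were other pseudocounts, scalings, thresholds, and filters. Python 3.11.15, numpy 2.4.6, pandas 2.3.3, and matplotlib 3.10.9 were used, and the scripts were tested on simulated data.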

Additional observations from a re-analysis of the deposited data

Results flagged for a closer look

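Isl2 moved in opposite directions in the 2 fractions between P2 and P5. Its FPKM went from 1.49 to 2.62 in Cd73NC, 1.76-fold up with overlapping bounds, and from 5.12 to 2.37 in Cd73PC, 2.16-fold down with separate bounds. The log2 changes were 0.82 and -1.11, a difference of 1.92. With 1 library per condition this difference was not tested. The folds and log2 changes here are of FPKM with nothing added. On FPKM + 1, the rise of Isl2 in Cd73NC was 1.45-fold, within the 1.5-fold threshold used elsewhere. By FPKM alone, no other factor moved by 1.5-fold or more in opposite directions while reaching FPKM 1 in both fractions. From P2 to P8, Ebf1 went up 3.73-fold in Cd73NC, from 0.819 to 3.05, and down 1.87-fold in Cd73PC, where it stayed below FPKM 1.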

How the results depend on the processing

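The 7 counts of factors past 1.5-fold were recomputed under 8 other settings and 1 chosen after seeing the data, the midpoint of the bounds in place of the FPKM. Of these 63 values, 52 stayed within 1.5 times the reported count, and 11 moved. With a pseudocount of 0.1 in place of 1, the count was 9 at P2, in place of 4, and 5 at P8, in place of 1, between the fractions, 8 in place of 4 from P2 to P5 Cd73NC, and 6 in place of 3 from P5 to P8 Cd73NC. With no pseudocount it was 9 at P2, 5 at P5 in place of 3, and 5 at P8, and 8 and 7 for the 2 steps within Cd73NC. These are the settings that let values below FPKM 1 count in full. The share of all genes past 1.5-fold was not computed under these settings, so these counts have no background to be read against. Quantile normalization gave 2 factors at P8, with Isl2 added on the Cd73PC side, and the cause was not tested. A 2-fold threshold left 4 of 7 factors between E15 and E18 by its own construction. The count of 8 lower factors from E18 to P2 Cd73NC stayed within 1.5 times under every alternative. For single factors no ratio that was past the threshold changed sign. Among the smaller ones, quantile normalization took the log2 ratio of Cd73NC over Cd73PC from 0.10 to -0.33 for Isl2 at P5. For Atoh7 at P8 it went from 0.16 to -0.07. By 1.5-fold or more, 29 of 57 ratios moved with no pseudocount, 27 of 63 with 0.1, and 0 of 63 each under the 2 scalings and the midpoint. The 2 scalings brought the median log2 ratio of expressed genes between the fractions at P8 from 0.23 to 0.14 and -0.03. Pairing the fractions by stage was also chosen after seeing the data, and in this limma fit 0 factors passed an adjusted p of 0.05, as with a pseudocount of 0.1, without any 1 of the 3 stages, and without the stage block, where 54 of all genes passed. The lowest adjusted p of a factor lay between 0.101 and 0.447 over these settings. In the comparisons of 2 single libraries no library could be left out in turn.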
